A study of Mus musculus with 7 samples.

Results

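Mitochondrial ribosomal protein genes are the nuclear genes whose products, made in the cytosol and imported, build the ribosome inside mitochondria. They were taken here as every protein-coding gene of the deposited expression table whose symbol begins with Mrpl or Mrps followed by a number. The rule gave 77 genes of 47643 in the table, 48 named Mrpl and 29 named Mrps. By present assignments 50 of the products belong to the large subunit and 26 to the small, since Mrps18a and Mrps30 sit in the large subunit and Mrps36 in neither. A further 5 rows carry such a name but are pseudogenes and were left out. The rule used gene names alone, but the gene family was taken up with earlier results of these data known. Symbols do not follow function exactly: at least 6 proteins of this ribosome have other names (Dap3, Chchd1, Ptcd3, Aurkaip1, Gadd45gip1 and Ict1), and Mrps36 is now known as a subunit of the 2-oxoglutarate dehydrogenase complex.

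Poly(A) RNA of mouse lung alveolar macrophages, the resident phagocytes of the airspaces, had been sequenced in 7 libraries of 3 genotypes, sorted per the labels as CD11c+ F480+ SiglecF+. The 3 WT libraries were set against 3 libraries of cSiah1a/2f/f::Lyz2cre (here Lyz2cre) and 1 of cSiah1a/2f/f::CD11ccre (here CD11ccre). In both Cre lines floxed alleles of Siah1a and Siah2, which encode RING-type E3 ubiquitin ligases, are meant to be lost, through Cre expressed from the lysozyme gene Lyz2, active in many myeloid cells, or from the promoter of CD11c (gene Itgax), active in alveolar macrophages and dendritic cells. The labels give neither age, sex nor strain, do not say whether WT mice carried floxed alleles or a Cre, and do not say that the numbered replicates were separate animals, so each p-value reflects the spread among libraries, which may be technical.

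The mitochondrial ribosome translates only the mRNAs of the mitochondrial genome, which encode core subunits of the respiratory chain and of the ATP synthase. It descends from a bacterial ribosome, so many of its proteins have bacterial counterparts, while others were added in the mitochondrial lineage. Alveolar macrophages rely on mitochondrial oxidation of surfactant lipids, and the proteins of this ribosome must be made in matching amounts with ribosomal RNA transcribed inside the organelle.

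Promoter stretches are printed here for members on which the results below turn. Sequences are from RefSeq on GRCm38.p6, written 5′ to 3′ on the strand of the gene, with capitals marking matches to the 3 motifs searched and lower case elsewhere. For Mrps15, the member whose call in Lyz2cre against WT held in the most alternative analyses, the 150 bases before its first annotated exon lie at chr4:126046775-126046924 on the plus strand and hold no match. For Mrpl32, the member with the largest fall in Lyz2cre against WT, the stretch of 74 bases reaches to the divergently transcribed proteasome gene Psma2. It separates the first GENCODE exons of both genes, lies at chr13:14613166-14613239 and is given on the minus strand.
Mrps15: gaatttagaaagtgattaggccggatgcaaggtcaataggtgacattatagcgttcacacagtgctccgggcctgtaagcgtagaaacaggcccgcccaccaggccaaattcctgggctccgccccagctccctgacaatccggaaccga
Mrpl32 and Psma2: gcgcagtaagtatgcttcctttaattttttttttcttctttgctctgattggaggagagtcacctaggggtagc

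Short sites of 30 bases show the motifs themselves in members named below, near the gene starts given by RefSeq. In GENCODE these genes start further upstream, at positions 31596935 (Mrpl33), 14613165 (Mrpl32), 39810988 (Mrps33) and 73328513 (Mrpl36). Each of the sites therefore lies inside its GENCODE gene. The site of Mrpl33, the most abundant member, at chr5:31613928-31613957 (plus strand) has an NRF1-type match followed by an ETS-type match. The site of Mrpl32 at chr13:14613106-14613135 (minus strand) has 2 overlapping NRF1-type matches, 1 on each strand. The site of Mrps33 at chr6:39810887-39810916 (minus strand) has an ETS-type match, and that of Mrpl36 at chr13:73330968-73330997 (plus strand) a YY1-type match.
Mrpl33: taccggaacccGCGCATGCcCCGGAAGtag
Mrpl32: ctttgacccttGCGCATGCGCaagaggggc
Mrps33: aagtaaaggggggcgggcCTTCCGGggacg
Mrpl36: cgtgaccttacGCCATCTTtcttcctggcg

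Of the 77 members, 68 were matched by symbol to a RefSeq window of 300 bases around the gene start. The NRF1-type motif GCATGCGC, searched on both strands, was in 8 of the 68 windows (11.8%), against 3.05% of all 27025 genes with a window and 6.6% of the 8183 that were also tested for expression. NRF1 (nuclear respiratory factor) is a transcription factor known for nuclear genes of mitochondria. The ETS-type motif CCGGAAG was in 25 windows (36.8%), against 9.93% of all genes and 22.4% of those tested. The YY1-type motif AAGATGGC was in 12 windows (17.6%), against 3.19% of all genes and 6.04% of those tested. None of the 3 motifs contains another, and the NRF1-type motif can overlap its own match on the other strand. Such matches describe letters only. Windows of the members held a median of 21 CpG dinucleotides, close to 22 in the tested genes and above 8 over all windows.

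Another shared feature was position. A protein-coding gene starting on the opposite strand within 1000 bases was annotated for 33 of the 77 members (42.9%). Among tested protein-coding genes it was so for 1856 of 10249 (18.1%). Starts on either side were counted, so pairs that overlap at their starts are included along with divergent ones. The members lay on 17 chromosomes, with at most 10 on chromosome 11. Mrps11 and Mrpl46, named after their positions were seen, formed an opposite-strand pair of 2 members that overlap at their starts. Exonic length, merged over all annotated transcripts of a gene, had a median of 2255 bases against 4123 over all genes tested.

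All 77 members were expressed in these macrophages, at levels given as TPM (length-scaled shares that sum to 1000000 in each library). Every member passed the filter of a mean of at least 1 TPM over the 7 libraries, which 11397 of 47643 genes passed, so none was lost to low values. Mean TPM ran from 9.71 to 249 with a median of 46.7, against a median of 14.4 over all genes tested. On the same scale the median was 1166 for 76 cytosolic ribosomal protein genes and 167 for 78 nuclear genes of oxidative phosphorylation subunits, so members were expressed well below either. It was 10.6 for 27 mitoribosome assembly factors and 11.5 for 16 mitochondrial translation factors. The 46 members with a bacterial counterpart had a median of 55.8 and the 30 specific to mitochondria one of 30.3, a grouping made after the values were seen and given with no test.

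The most abundant member was Mrpl33, the counterpart of bacterial L33 in the large subunit. It measured 283.93, 323.06 and 358.03 TPM in WT, 181.61, 261.15 and 179.84 in Lyz2cre, and 153.91 in CD11ccre. All 4 libraries of the Cre lines lay below the lowest WT library, but the difference did not pass the test in Lyz2cre (log2 fold change -0.65, SE 0.17, adjusted p = 0.0688). Next came Mrps21, the counterpart of bacterial S21, at 242 ± 32.1 TPM in WT and 205 ± 32.0 in Lyz2cre (SD, n = 3), then Mrps33, Mrpl17, Mrpl51 and Mrpl20. Mrps21, Mrpl17 and Mrpl51 overlapped between WT and Lyz2cre. Replicates of a genotype typically differed little, with a median ratio of the highest to the lowest library of 1.33 in WT and 1.32 in Lyz2cre, but a few members spread far more. Chosen after their values were seen as the widest in WT, Mrps5 spread 2.5-fold, Mrpl2 2.47-fold and Mrpl23 2.13-fold.

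The targeted genes matched the labels. Siah1a was at 6.72 to 16.59 TPM in WT and at 0 to 0.05 in Lyz2cre and CD11ccre, and Siah2 was at 12.69 to 17.33 in WT and 1.21 to 1.95 in the Cre lines. Of 10 alveolar macrophage markers all 10 had a mean of at least 1 TPM, and their sum was 25706 to 28554 in WT, 59671 to 75042 in Lyz2cre and 68122 in CD11ccre. A sum is led by its most abundant genes and does not describe each marker. Siglecf, a gene of the sort itself, was at 231 ± 23.3 TPM in WT and 84.5 ± 20.8 in Lyz2cre. Adgre1 was at 128 ± 22.4 and 100 ± 9.46, and Itgax at 362 ± 31.6 and 429 ± 6.59. Markers of other cells also differed: summed neutrophil markers were at 26.3 to 64.8 TPM in WT, 89.6 to 128 in Lyz2cre and 93.7 in CD11ccre, with Ly6g at 0 throughout, and alveolar type 2 markers at 28.9 to 44.1, 44.0 to 60.6 and 45.5. Club and ciliated cell markers summed to 110 to 202 in WT and 90 to 268 in Lyz2cre, and endothelial, T and NK and B cell markers summed to at most 2.06 in any library. Lyz2 was at 72.56 to 86.25 TPM in WT, 46.62 to 61.89 in Lyz2cre and 50676.05 in CD11ccre, so WT stood with Lyz2cre. The labels do not say whether WT mice carried a Cre, and the cause of this difference was not tested. TPM are shares of a fixed sum, so values of the members move when abundant genes change, such as Lyz2 in CD11ccre. A second scaling, by the median of each library's ratios to the gene-wise means (median-of-ratios), was therefore run beside the deposited values. Its factors were 1.075 to 1.13 in WT, 0.9303 to 0.9966 in Lyz2cre and 0.882 in CD11ccre, and the part of these differences in any single result was not tested.

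Against WT, Lyz2cre macrophages had less mRNA of 7 of the 77 mitochondrial ribosomal protein genes and more of none, by limma with Benjamini-Hochberg adjustment over all 11397 genes and a threshold of 0.05. Those that fell were Mrps15, Mrpl36, Mrps6, Mrpl20, Mrpl32, Mrps31 and Mrps33, 3 of the large and 4 of the small subunit, each 1.52-fold to 1.94-fold lower on plain means. Leaving out any 1 of the 6 WT and Lyz2cre libraries left 1 or 2 members called, Mrps15 each time. The share called lower was 9.09% of members against 4.6% of all genes tested, and 2.17% of all genes were called higher. At an unadjusted p under 0.05, 23 members were lower (29.9%, against 18.7% of all genes) and 1 was higher (1.3%, against 5.96%). In bulk RNA, fewer cells of a type and less RNA per cell cannot be told apart.

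**Figure D1:**
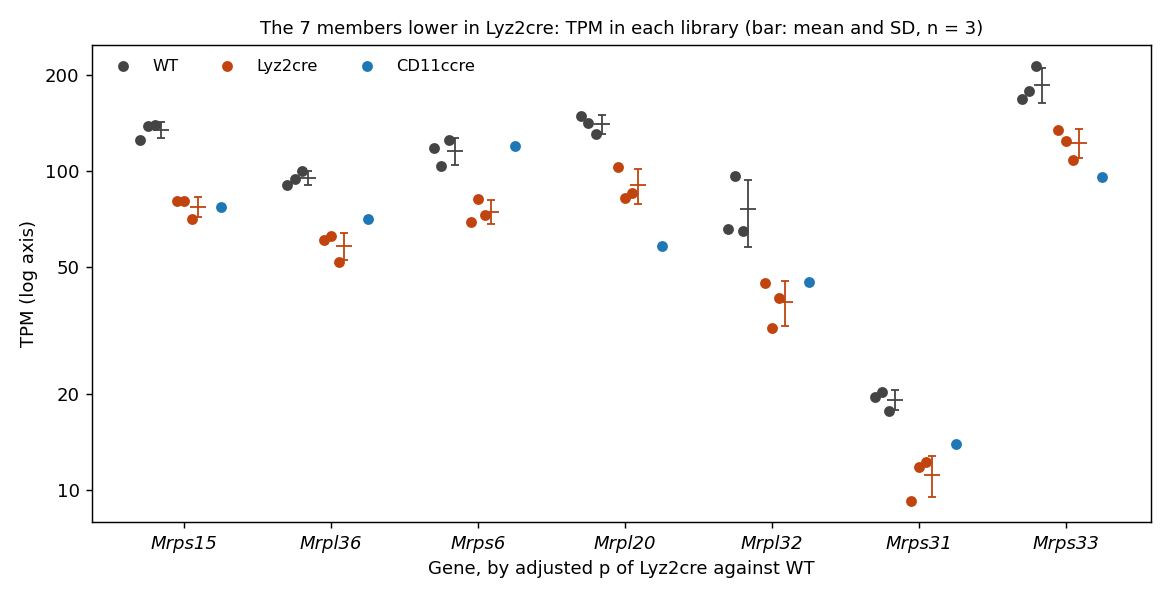
TPM (log axis) of the 7 members called lower in Lyz2cre, each point a library, with the mean and SD (n = 3) beside the WT and Lyz2cre points. The Lyz2cre libraries lie below the WT libraries for all 7, which were picked by the test on these same libraries. Over all genes tested 23.3% have every Lyz2cre library below WT. The CD11ccre library lies among WT only for Mrps6 (119.89), and 50.5% of all genes tested have it below the WT range.

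Mrps15, the counterpart of bacterial S15 in the small subunit, had the smallest p. It lies at chr4:126046925-126055532 on the plus strand and measured 125.21, 137.85 and 139.34 TPM in WT, 80.17, 80.51 and 70.59 in Lyz2cre, and 77.06 in CD11ccre. The WT libraries were all above every library of the Cre lines, a gap far wider than the spread within either genotype. Its log2 fold change was -0.79 (SE 0.11, adjusted p = 0.00997) in Lyz2cre and -0.79 (adjusted p = 0.0484) in CD11ccre. The Lyz2cre call was made in 19 of 19 alternative analyses (adjusted p 0.00362 to 0.049), whereas that in CD11ccre was made in 6 of 18 (adjusted p 0.0265 to 0.21). No other annotated transcript shares a run of 75 bases, the read length, with Mrps15 on the same strand.

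Mrpl36, the counterpart of bacterial L36 and among the smallest proteins of the large subunit, lies at chr13:73328513-73332178. It measured 90.27, 94.40 and 99.78 TPM in WT, 60.66, 62.28 and 51.96 in Lyz2cre, and 70.53 in CD11ccre. All Lyz2cre libraries were below all WT libraries, with CD11ccre between them. The log2 fold change in Lyz2cre was -0.70 (SE 0.12, adjusted p = 0.0196), called in 10 of 19 alternatives (adjusted p 0.00807 to 0.0726), and in CD11ccre -0.42 (adjusted p = 0.2). Its opposite-strand neighbour Ndufs6, a subunit of respiratory complex I, has its annotated start 29 bases away. Ndufs6 gave 105 ± 18.1 TPM in WT and 122 ± 12.7 in Lyz2cre (log2 fold change 0.21, SE 0.15, adjusted p = 0.437). These annotated genes overlap on opposite strands, and how the quantification used strand is not given in the sources used here.

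Mrpl32, the counterpart of bacterial L32, is known to be cut by an inner-membrane protease before it joins the large subunit. It had the largest fall in Lyz2cre, from 65.62, 96.58 and 64.83 TPM in WT to 44.61, 32.15 and 39.97 in Lyz2cre, with 44.85 in CD11ccre. WT replicate 2 was far above the other WT libraries, but the groups did not overlap. The log2 fold change was -0.93 (SE 0.20, adjusted p = 0.0392), called in 7 of 19 alternatives (adjusted p 0.0138 to 0.122). Psma2, on the other side of the stretch printed above, had a log2 fold change of -0.33 (adjusted p = 0.0812).

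Mrpl20, the counterpart of bacterial L20, measured 148.86, 141.06 and 130.06 TPM in WT, 102.94, 82.01 and 85.06 in Lyz2cre, and 58.25 in CD11ccre. The CD11ccre library was the lowest of the 7. The log2 fold change was -0.64 (adjusted p = 0.0328) in Lyz2cre, called in 8 of 19 alternatives (adjusted p 0.0126 to 0.118), and -1.25 (adjusted p = 0.0205) in CD11ccre, called in 14 of 18 (adjusted p 0.00668 to 0.0764). The difference between the Cre lines did not pass the test (log2 fold change -0.61, adjusted p = 0.769).

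Mrps6, the counterpart of bacterial S6, measured 117.78, 103.14 and 124.79 TPM in WT, 68.91, 81.55 and 72.80 in Lyz2cre, and 119.89 in CD11ccre. CD11ccre lay inside the WT range and above every Lyz2cre library. In Lyz2cre its log2 fold change was -0.62 (adjusted p = 0.0321), called in 7 of 19 alternatives (adjusted p 0.0138 to 0.112). In CD11ccre it was 0.06 (adjusted p = 0.868), and the difference of CD11ccre from Lyz2cre, 0.68, did not pass the test (adjusted p = 0.677). Of its 75-base runs, 15.9% also occur in Gm49711 or Slc5a3, which share its first exon, so part of its reads could have been assigned to either.

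The remaining pair, Mrps31 and Mrps33, are proteins of the small subunit without a bacterial counterpart. Mrps31 measured 19.52, 20.36 and 17.71 TPM in WT, 9.29, 11.85 and 12.30 in Lyz2cre, and 13.93 in CD11ccre, and Mrps33 167.50, 177.87 and 212.19, then 134.19, 124.09 and 108.43, then 95.80. For both, every library of the Cre lines was below every WT library. Their log2 fold changes in Lyz2cre were -0.74 (adjusted p = 0.0409) and -0.60 (adjusted p = 0.045), each called in 7 of 19 alternatives (highest adjusted p 0.119 and 0.145). For Mrps33, 10.3% of 75-base runs also occur in the gene Gm5776.

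At the other end, no member rose past the threshold. Mrpl3, the counterpart of bacterial L3 in the large subunit, had the largest positive log2 fold change, 0.48 (adjusted p = 0.115), with 34.72, 26.82 and 37.07 TPM in WT and 42.32, 47.09 and 47.78 in Lyz2cre. CD11ccre, at 32.99, lay inside the WT range. Mrps18b had a log2 fold change of 0.44 (adjusted p = 0.234), Mrpl14 0.40 (adjusted p = 0.241) and Mrps5 0.35 (adjusted p = 0.552). Mrpl3 and Mrps18b were the only members of the 77 with every Lyz2cre library above every WT library (2.6%, against 7.45% of all genes tested), and 23 members had every Lyz2cre library below (29.9%, against 23.3%).

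The paralogues Mrps18a, Mrps18b and Mrps18c descend from 1 bacterial protein, S18, but occupy different places, Mrps18a in the large subunit and the other two in the small. Mrps18a was at 65.4 ± 4.69 TPM in WT and 56.1 ± 9.21 in Lyz2cre (log2 fold change -0.23, adjusted p = 0.389). Mrps18b was at 38.1 ± 6.81 and 52.2 ± 11.9, and Mrps18c at 129 ± 25.4 and 90.4 ± 9.15 (log2 fold change -0.49, adjusted p = 0.132), so none of the 3 passed the test. In CD11ccre all 3 had values below the lowest WT library (45.56, 29.35 and 88.31 TPM), with adjusted p of 0.208 to 0.512. Of all genes tested, 50.5% lay below the WT range in that library. With median-of-ratios scaling the log2 fold changes in CD11ccre were -0.20 for Mrps18a, -0.04 for Mrps18b and -0.21 for Mrps18c. Of the 75-base runs, 12.1% in Mrps18b and 9.56% in Mrps18c also occur in another gene.

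As a group the members lay close to the rest of the transcriptome. The median log2 fold change of the 77 in Lyz2cre was -0.20, against -0.16 over all genes tested, and 60 were below 0 (77.9%, against 67% of all genes). The 50 large-subunit genes had a median of -0.19 and the 26 small-subunit genes of -0.22. Members with a bacterial counterpart had a median of -0.23 with 5 of 46 called lower (10.9%), and those specific to mitochondria -0.18 with 2 of 30 (6.67%, near the 4.6% of all genes). With median-of-ratios scaling, which moved the median of all genes to 0.00, the median of the members was -0.03, and 43 of 77 were below 0 (55.8%, against 50.1%).

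**Figure D2:**
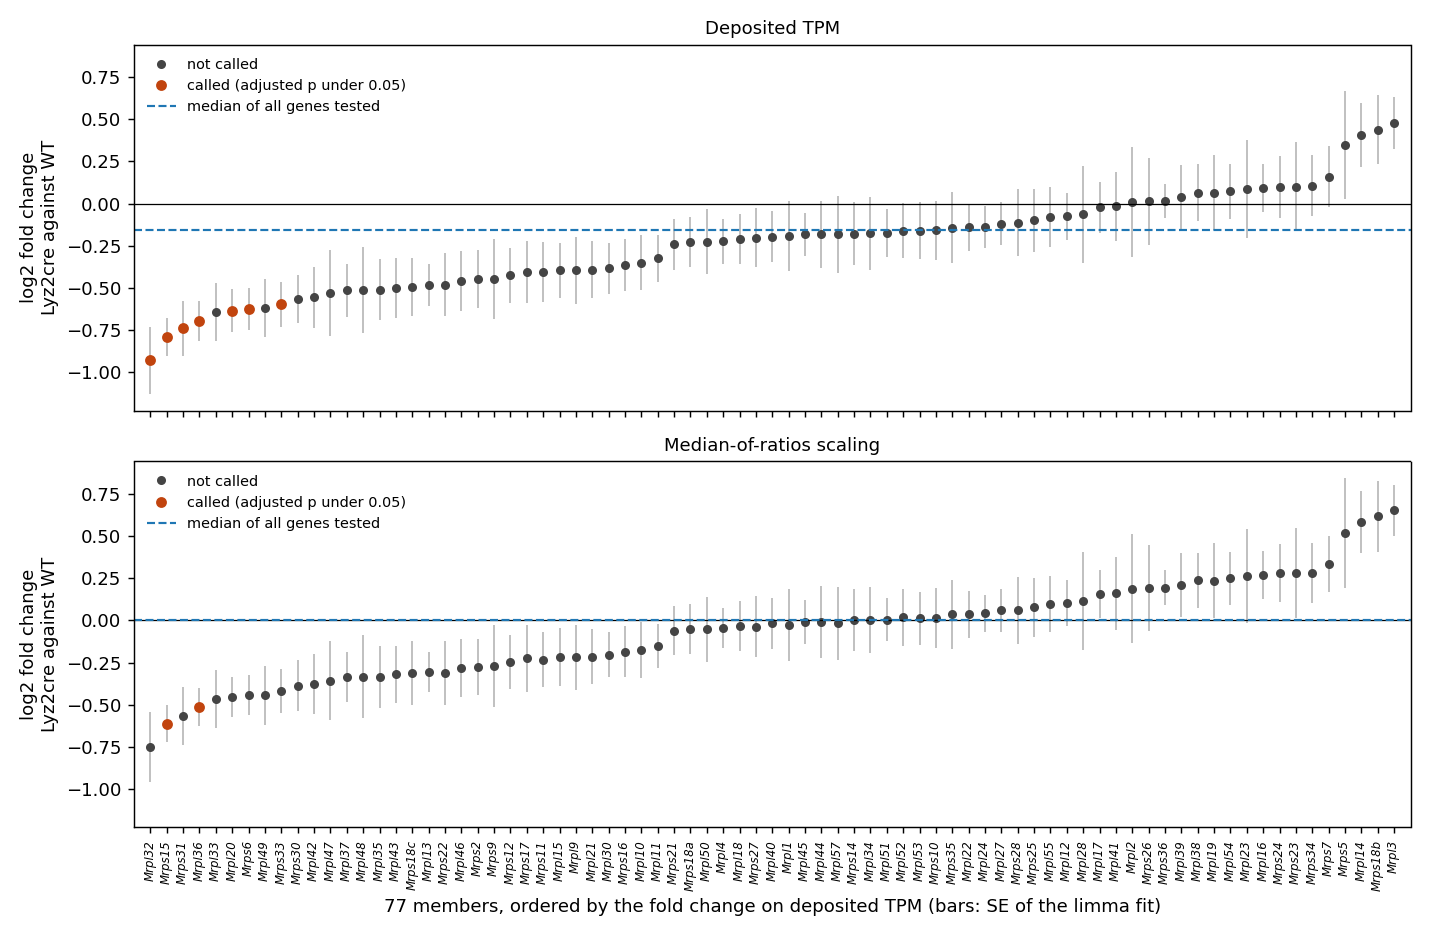
Log2 fold change of Lyz2cre against WT for each of the 77 members on deposited TPM (top) and after median-of-ratios scaling (bottom), ordered by the upper values, with the SE of the limma fit. Called members are orange and the dashed line is the median of all genes tested. The number called goes from 7 to 2, and the members lie on both sides of the dashed line in each panel.

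With that scaling Mrps15 (log2 fold change -0.61, adjusted p = 0.0238) and Mrpl36 (-0.52, adjusted p = 0.0471) still passed the test, 2 of 77 (2.6%, against 1.85% of all genes called lower), and none was called higher (2.97% of all genes were). The other 5 kept a negative fold change, from -0.42 to -0.75, with adjusted p of 0.0797 to 0.126. Over all genes, the calls went from 524 lower and 247 higher to 211 lower and 339 higher. Of the positive members, Mrpl3 had a log2 fold change of 0.65 (adjusted p = 0.0615) after scaling. Every Lyz2cre library was then below every WT library for 12 members (15.6%, against 12.5% of all genes) and above for 5 (6.49%, against 13.8%).

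In the single CD11ccre library, 2 members were called lower than WT, Mrpl20 and Mrps15, and none higher. That is 2.6% of members, near the 1.99% of all genes called lower, and 0.895% of all genes were called higher. At an unadjusted p under 0.05, 14 members were lower (18.2%, against 18.8%) and 0 higher (3.45% of all genes). Without WT replicate 1 or WT replicate 2 none was called, and without any other library Mrpl20 alone. With 1 library the fit assumes that it varies like the other genotypes. The median log2 fold change of the members was -0.34, against -0.29 over all genes, and 68 were below 0 (88.3%, against 73.2%). With median-of-ratios scaling the medians were -0.03 and -0.01, with 41 below 0 (53.2%, against 50.5%). Of the 77, 46 lay below the WT range and 4 above (59.7% and 5.19%, against 50.5% and 13% of all genes), and with that scaling 21 and 18 (27.3% and 23.4%, against 29% and 29.4%). Scaled, only Mrpl20 stayed called (log2 fold change -0.93, 1.3% of members against 0.746% of all genes lower and 1.33% higher). Both Cre lines were compared with the same 3 WT libraries, so their values stand side by side and are not independent.

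**Figure D3:**
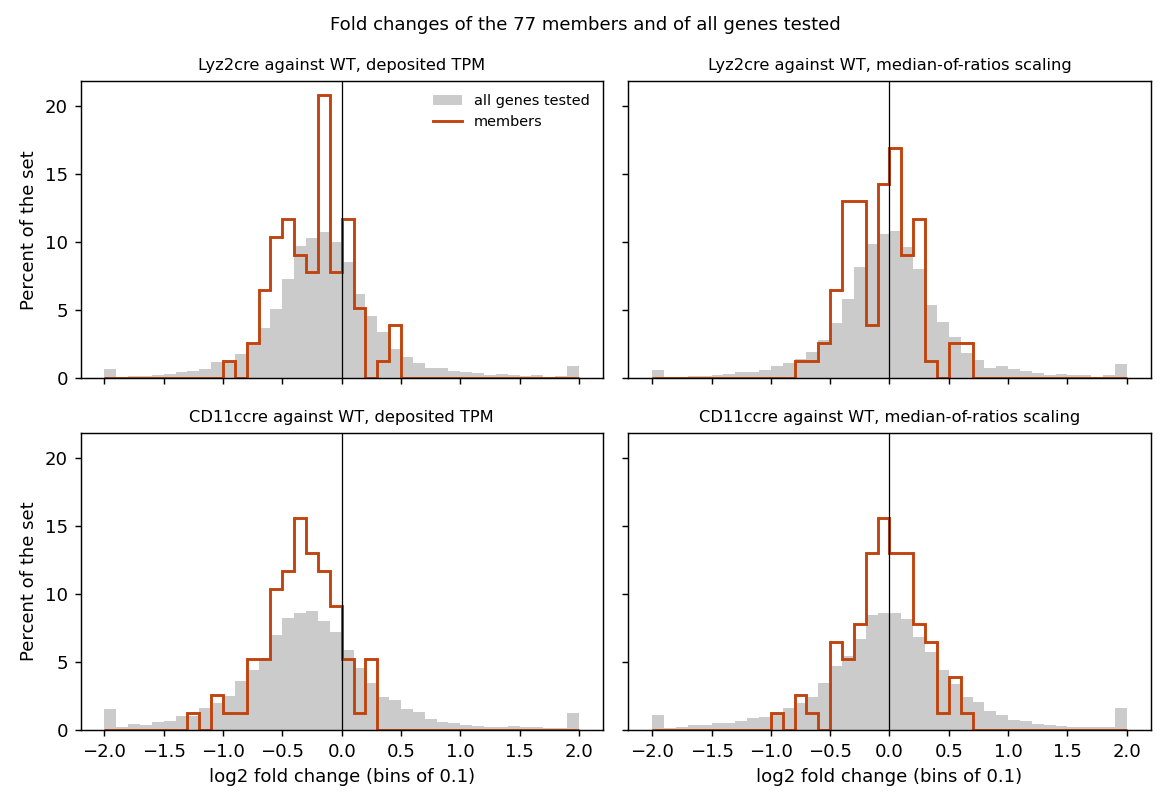
Log2 fold changes of the 77 members (orange outline) and of all 11397 genes tested (grey), as percent of each set in bins of 0.1, for Lyz2cre and CD11ccre against WT, with values beyond the axis gathered in the outermost bins. The members lie within the grey distribution in each panel, centred at -0.20 and -0.34 on deposited TPM and at -0.03 and -0.03 after scaling.

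Between the Cre lines no member passed the test. Of all genes, 0.0702% were called lower and 0.0439% higher in CD11ccre than in Lyz2cre, and at an unadjusted p under 0.05 6 members were lower (4.88% of all genes) and 1, Mrps6, higher (1.22% of all genes). The median log2 fold change of the members was -0.07, against -0.12 over all genes. Mrps18b had a log2 difference of -0.79 (adjusted p = 0.808). With median-of-ratios scaling no member was called either, with 0.0702% of all genes lower and 0.079% higher.

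Summed over the 77 genes, the members made up 4724.96, 4748.29 and 4454.72 TPM in WT, 3748.77, 4041.88 and 3589.75 in Lyz2cre, and 3498.42 in CD11ccre. Every library of the Cre lines was below every WT library. The mean in Lyz2cre was 81.7% of WT and the CD11ccre value 75.4%, whereas after median-of-ratios scaling they were 92.6% and 93.9% and the libraries of WT and Lyz2cre overlapped. Cytosolic ribosomal protein genes were at 83.3% and 74.2% of WT on deposited TPM and 94.5% and 92.5% after scaling, and nuclear genes of oxidative phosphorylation were at 84.1% and 81.9%, then 95.3% and 102%. The sum of the 13 mRNAs of the mitochondrial genome, those that this ribosome translates, was at 44.3% of WT in Lyz2cre and 49.6% in CD11ccre, and at 50.2% and 61.7% after scaling. In each library of the Cre lines it was below each WT library under both scalings.

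**Figure D4:**
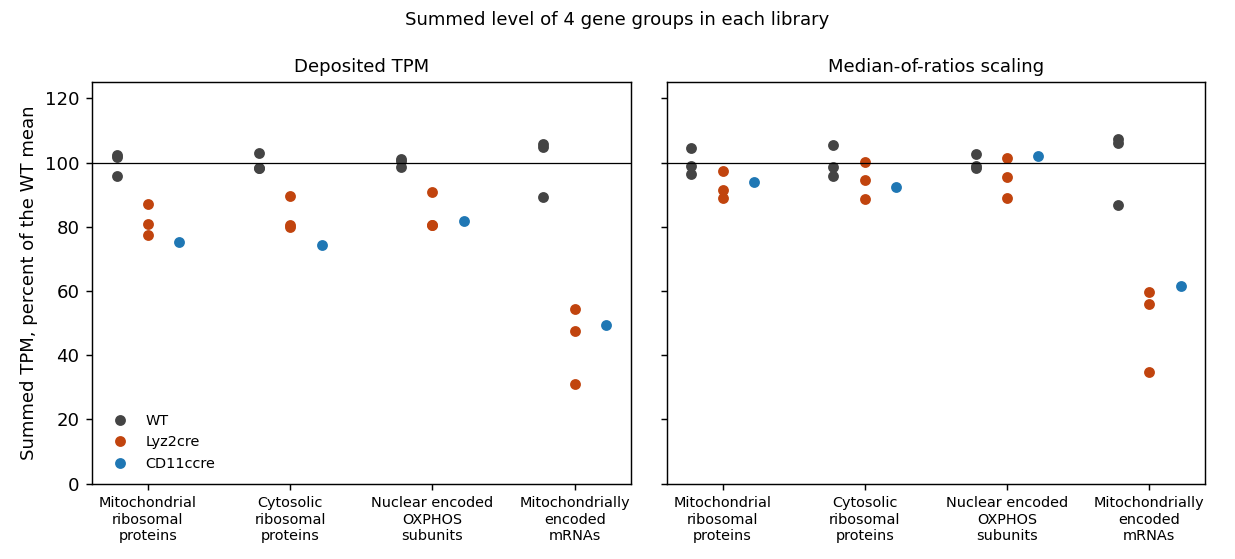
Summed TPM of 4 gene groups in each library as a percentage of the WT mean, on deposited TPM (left) and after median-of-ratios scaling (right). The first 3 groups are at 74.2% to 84.1% of WT in the Cre lines on the left and at 92.5% to 102% on the right, while mRNAs of the mitochondrial genome are at 44.3% and 50.2% in Lyz2cre.

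Genes that work with this ribosome were taken from lists chosen with earlier results known. Among its templates, the mitochondrially encoded mRNAs, there were 10 of 13 called lower in Lyz2cre (76.9%, against 4.6% of all genes, median log2 fold change -1.29), and 10 of 13 after scaling (median -1.10). Among them mt-Cytb, the cytochrome b of complex III, fell from 7605 ± 555 to 3004 ± 725 TPM (adjusted p = 0.00888), mt-Co2 of cytochrome c oxidase from 15216 ± 1444 to 7781 ± 1313 (adjusted p = 0.0115) and mt-Nd6 of complex I from 3483 ± 383 to 1493 ± 349 (adjusted p = 0.0126). In CD11ccre all 13 were below 0 (median -1.10) and none passed the test. The number called in Lyz2cre rested on single libraries: without WT replicate 2 it was 0, without WT replicate 3 it was 1, without Lyz2cre replicate 3 it was 3, and the median was then -1.27, -1.20 and -1.39.

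Of 6 ribosomal proteins of other names none was called in either line (median log2 fold change -0.23 in Lyz2cre). Among 27 assembly factors 1 fell in Lyz2cre (3.7%), Mterf3, an mTERF family protein that acts in mitochondrial transcription and ribosome formation, from 47.0 ± 8.84 to 24.8 ± 5.32 TPM (log2 fold change -0.90, adjusted p = 0.0409). None of 16 translation factors was called (median -0.20). Among 21 mitochondrial aminoacyl-tRNA synthetases, which charge the tRNAs, 1 fell (4.76%), the arginine enzyme Rars2, from 20.4 ± 3.43 to 9.93 ± 1.76 TPM (log2 fold change -0.97, adjusted p = 0.0304, list median -0.33). Among 32 genes of mitochondrial DNA transcription and RNA maintenance 1 fell (3.12%), the oligoribonuclease Rexo2 (log2 fold change -0.61, adjusted p = 0.0169, list median -0.26). These shares are near or below the 4.6% of all genes called lower. With median-of-ratios scaling only Rexo2 of these 3 passed (adjusted p = 0.0438). Leaving out any 1 of the 6 WT and Lyz2cre libraries left no assembly factor and no synthetase called, and no gene of RNA maintenance except 1 without WT replicate 3.

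Proteins of this ribosome reach it through the import channels. Of 22 import and protease genes, 3 fell in Lyz2cre (13.6%, against 4.6% of all genes), the outer-membrane receptors Tomm22 (log2 fold change -0.52, adjusted p = 0.0239) and Tomm20 (-0.65, adjusted p = 0.0334) and the inner-membrane protease Oma1 (-1.14, adjusted p = 0.0352). In CD11ccre 2 fell (9.09%, against 1.99% of all genes), Tomm20 and the inner-membrane channel subunit Timm17a. After scaling none of the 22 was called in either line, and both CD11ccre calls were also lost on leaving out any 1 WT or Lyz2cre library. For comparison, 11 of 76 cytosolic ribosomal protein genes fell in Lyz2cre (14.5%, median -0.27), and 1 after scaling (median -0.09), and 3 of 78 nuclear genes of oxidative phosphorylation fell (3.85%, median -0.24), 0 after scaling, when 1 was called higher. Leaving out any 1 of the 6 WT and Lyz2cre libraries gave Lyz2cre counts of 0 to 1 for the import and protease genes and of 0 to 3 for each of the other 2 lists.

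Annotated overlaps limit some members. The share of 75-base runs found in another gene on the same strand was 0 for 44 members and at least 5% for 13, the highest being 78.8% for Mrpl53 (all in Gm42688) and 32.4% for Mrps34 (in Nme3), named for these shares, so their values depend on how the quantification split such reads. For the 33 members with an opposite-strand neighbour starting nearby, 30 of those neighbours were tested. Of these 30, 0 were called in Lyz2cre (4.6% of all genes tested were called lower and 2.17% higher), and 2 were members themselves. The 7 called members included 1 with the NRF1-type motif (Mrpl32) and 1 with the ETS-type motif (Mrps33). The YY1-type motif was in 2 of them (Mrpl32 and Mrpl36), and Mrps15, Mrpl20, Mrps6 and Mrps31 had none of the 3 in their windows. Of the 61 other members with a window, 7 held the NRF1-type, 24 the ETS-type and 10 the YY1-type motif. These counts were not tested.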

How the data were processed

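The authors deposited 1 table of TPM, to 2 decimals, for 7 libraries. Tools listed by the submitters' processing notes are RSEM 1.3.1, STAR 2.7.0d and cutadapt 2.3, with build mm10; their parameters, annotation and strand setting are not stated in any source used here. TPM keep no depth, so no counting error is given. All 47643 rows entered, and values were used as log2(TPM + 1). Genes with a mean of at least 1 TPM (11397) were fitted with limma 3.58.1 (R 4.3.3, trend, 1 coefficient per genotype, all 7 libraries, 4 residual degrees of freedom), two-sided, with Benjamini-Hochberg adjustment over all genes and a threshold of 0.05. Fold changes on that scale understate the change of low genes. The fit was tried on simulated data with independent noise, known changes in Lyz2cre only and no shift of whole libraries. That trial does not bear on the CD11ccre comparison or on scaling. Coordinates are GENCODE M21 (GRCm38), matched by ID for 47224 of 47643 rows and all 77 members, and a gene's start is its outermost annotated one.

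Members, companion lists, markers and motifs were chosen with earlier results of these data known, and the bacterial and mitochondrial grouping after values were seen. Named members are those called (up to 10 a direction in Lyz2cre and 6 in CD11ccre), the 6 most abundant, the 4 largest and 4 smallest fold changes, the Mrps18 paralogues, and up to 3 called per list. Of the list symbols 4 were not in the table. Same-numbered WT and Lyz2cre libraries did not deviate together (r = -0.0149, 0.0431 and 0.0656 over genes), so numbers were not taken as pairs. Alternatives varied pseudocount, filter, scaling, moderation, block and libraries.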

Additional observations from a re-analysis of the deposited data

How the results depend on the processing

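The 7 members called lower in Lyz2cre became 2 with no filter, 2 with median-of-ratios scaling, 2 without Ftl1, Fth1, Chil3 and Lyz2, 1 with quantile normalization, 1 without limma's trend and 11 without mitochondrially encoded genes, and 1 to 2 when any 1 library was left out, Mrps15 being called each time; protein-coding genes alone gave 10. The count over all genes moved too, from 524 lower to 205, 211, 215, 213, 247 and 910 in that order, 99 to 273 with 1 library left out and 890 for protein-coding genes. The 2 members called in CD11ccre became 1 with a pseudocount of 5, median-of-ratios, quantile normalization or without the 4 abundant genes, 4 with the filter at mean TPM 5 or without mitochondrially encoded genes, 5 with protein-coding genes only, 0 without the trend, and 0 to 1 with 1 library left out (0 without WT replicate 1 or 2). Over all genes the 227 lower in CD11ccre became 181, 85, 79, 95, 346, 441, 558 (of 10304) and 61 in that order. With 1 library left out they became 8 to 111. The replicate block, given next, left 219 of all genes lower in Lyz2cre and 13 in CD11ccre. With the replicate block 1 member (Mrps15) was called in Lyz2cre and 0 in CD11ccre; same-numbered WT and Lyz2cre libraries were not shown to be pairs, none correlating above 0.1 over all genes (1 pair, number 3, reached 0.189 over the members alone) and not every library best with its own number. The median log2 fold change of -0.196 in Lyz2cre became -0.027 with median-of-ratios, -0.033 with quantile normalization and -0.043 without the 4 abundant genes, and -0.341 in CD11ccre became -0.029, -0.048 and -0.117. No member was called between the Cre lines under any alternative. Summed TPM moved from 4643 in WT, 3793 in Lyz2cre and 3498 in CD11ccre to 4222 and 3966 (WT and CD11ccre, median-of-ratios), 5242, 4183 and 3865 (protein-coding only), 5077 (WT, without mitochondrially encoded genes), and 4891, 4483 and 4322 (without the 4 abundant genes). Signs turned only for log2 fold changes that were not called. In Lyz2cre Mrpl17 became 0.159, 0.154 and 0.143 under the median-of-ratios, quantile and abundant-gene settings and -0.15 to 0.07 with 1 library left out, Mrpl51 0.005 and 0.003 under the first 2, and Mrps5 -0.016 without WT replicate 1 (-0.016 to 0.614 over libraries left out). In CD11ccre Mrpl17 became 0.287, 0.231 and 0.199, and -0.158 to 0.047 with 1 library left out, Mrps21 0.069 with median-of-ratios, Mrps6 -0.005 without mitochondrially encoded genes and -0.016 to 0.12 with 1 left out, and Mrpl3 -0.013 with protein-coding genes only, -0.047 without mitochondrially encoded genes and -0.118 to 0.109 with 1 left out. Where calls were lost on leaving out a library, fewer residual degrees of freedom were left as well. No cause of the lost calls was tested. TPM hold no depth, so what depth limits is unknown.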

Other observations

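The pseudogene Mrpl23-ps1, which the name rule leaves out, was listed at 21.65, 38.17 and 40.60 TPM in WT, 17.60, 5.99 and 26.93 in Lyz2cre and 33.06 in CD11ccre, and 10.1% of the 75-base runs of Mrpl23 also occur in it or in other genes. The other 4 pseudogenes of such names were at 0 to 2.28 TPM. Mrps36, kept by the rule though its product is not now counted in this ribosome, was chosen after its values were seen for its small spread: its highest WT library exceeded the lowest 1.02-fold, and it was at 61.0 ± 0.515 TPM in WT and 61.7 ± 1.04 in Lyz2cre (SD, n = 3), with 53.43 in CD11ccre. Among the WT libraries, replicate 3 was the lowest for 36 of the 77 members (46.8%, against 35.4% of all genes tested). Among the Lyz2cre libraries replicate 2 was the highest for 41, and the matching share of all genes was not counted. It was the lowest for 18 members (23.4%, against 31.0% of all genes). That same Lyz2cre library had the lowest sum of mitochondrially encoded mRNAs, 25569.0 TPM against 44628.9 and 38998.0 in the other 2. A link between these was not tested.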
